A study of Homo sapiens with 27 samples.

Results

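The genes described here fold proteins in the endoplasmic reticulum (ER) or carry the unfolded protein response, the signalling that adjusts this folding capacity. The list holds 35 genes, set by name with earlier results of these data known, and a gene counted as a member where the deposited non-normalized table had a named probe for it. This held for 33 of the 35 genes, out of 17055 named genes on the array; PDIA3 and SSR1 were not analysed here. After the filter on dim probes 32 members remained among 12641 genes tested, 31 of them above background on all 27 arrays and ERP44 on 25. ERN1, the gene of the stress sensor IRE1, was above background on 0 of 27 arrays and was not tested.

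Proteins bound for the cell surface or for secretion enter the ER through the SEC61 channel and are folded there by chaperones of the HSP70 and HSP90 families, by thiol oxidoreductases that form disulfide bonds, and by the calnexin and calreticulin lectin cycle. When unfolded proteins accumulate, the membrane sensors IRE1, PERK and ATF6 signal: IRE1 splices XBP1 mRNA, PERK phosphorylates the translation factor eIF2 alpha and so raises ATF4, and cleaved ATF6 enters the nucleus. XBP1 and ATF6 induce chaperone and degradation genes, and ATF4 induces amino acid and stress genes, among them PPP1R15A, whose product reverses the eIF2 alpha phosphorylation. The arrays measured transcripts and not these protein steps, and whether the XBP1 probe separates spliced from unspliced mRNA is not given in the sources used here.

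The cells were SK-N-BE(2)c, an established human line of neuroblastoma, a childhood tumour of the sympathetic nervous system, in which MYCN is amplified. Their RNA was measured on 27 Illumina bead arrays in 7 groups. Cells kept in hypoxia received PP242, an ATP-competitive inhibitor of the kinase mTOR in both of its complexes, for 24, 48 or 72 h (n = 4 each). The matched cells in hypoxia received the solvent DMSO for 24 h (n = 3), 48 h (n = 4) or 72 h (n = 4), and a 0 h control had 4 arrays. Since the label of the control names neither solvent nor oxygen state, low oxygen, solvent and culture time cannot be told apart in comparisons with it. The oxygen level and the PP242 dose are not given in the sources used here. Whether the samples of a group were grown separately is not stated, and the p-values therefore rest on a spread that may be technical.

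Of 13 listed neuroblastoma and sympathoadrenal markers, 11 were tested, and MYCN, PHOX2A, HAND2, GATA3, ISL1, TH, CHGA, CHGB, GAP43, ELAVL4 and STMN2 were above background on all 27 arrays. Of 14 listed markers of other cells, 10 had a probe and 6 were tested. Among the 27 arrays, CD14 of monocytes was above background on 27, the fibroblast genes DCN, LUM and COL1A1 on 22, 21 and 9, the globins HBB and HBA1 on 4 and 3, the leukocyte gene PTPRC on 2, and the endothelial genes PECAM1, VWF and CDH5 on 1, 0 and 0. The arrays had a background mode between 92.4 and 106 per array and 20729 to 22843 probes above background. In bulk RNA, fewer cells expressing a gene and less RNA per cell cannot be told apart.

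Transcription factors of the unfolded protein response act through short promoter elements, and the members holding them are shown here so that they can be followed through the comparisons. The ER stress response element (ERSE), bound by NF-Y at CCAAT and by ATF6 or XBP1 at CCACG, was searched as CCAAT, 9 bases of any kind and CCACG, on both strands, in windows reaching from 250 bases before to 50 bases after each RefSeq start site. It lay in 27 of 35116 windows (0.0769%), in 25 of 27305 genes (0.0916%) and in 6 of the 31 members that had a window (19.4%). The element was described from promoters of such chaperone genes, so the share among the members is a description. Below are the 250 bases before the start site from RefSeq (GRCh38.p14), 5′ to 3′ along the gene, with both parts of each ERSE in capitals: HSPA5 at chr9:125241344-125241593 on the minus strand, HSP90B1 at chr12:103930160-103930409 on the plus strand, CRELD2 at chr22:49918384-49918633 on the plus strand, CALR at chr19:12938359-12938608 on the plus strand, XBP1 at chr22:28800570-28800819 on the minus strand and CANX at chr5:179698679-179698928 on the plus strand.
HSPA5: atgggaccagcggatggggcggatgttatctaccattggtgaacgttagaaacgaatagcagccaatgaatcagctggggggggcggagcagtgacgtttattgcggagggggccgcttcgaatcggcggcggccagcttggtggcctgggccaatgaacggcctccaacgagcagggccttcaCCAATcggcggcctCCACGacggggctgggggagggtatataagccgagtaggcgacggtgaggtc
HSP90B1: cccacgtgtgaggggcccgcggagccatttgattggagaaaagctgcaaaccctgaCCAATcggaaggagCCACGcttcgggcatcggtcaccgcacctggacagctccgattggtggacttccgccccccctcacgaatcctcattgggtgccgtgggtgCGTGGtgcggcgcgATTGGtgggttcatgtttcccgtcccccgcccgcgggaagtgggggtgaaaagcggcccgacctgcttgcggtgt
CRELD2: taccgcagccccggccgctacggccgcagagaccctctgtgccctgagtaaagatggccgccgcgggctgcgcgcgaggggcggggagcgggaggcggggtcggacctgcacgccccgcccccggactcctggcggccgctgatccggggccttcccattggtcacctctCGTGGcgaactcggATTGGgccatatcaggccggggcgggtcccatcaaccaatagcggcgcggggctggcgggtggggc
CALR: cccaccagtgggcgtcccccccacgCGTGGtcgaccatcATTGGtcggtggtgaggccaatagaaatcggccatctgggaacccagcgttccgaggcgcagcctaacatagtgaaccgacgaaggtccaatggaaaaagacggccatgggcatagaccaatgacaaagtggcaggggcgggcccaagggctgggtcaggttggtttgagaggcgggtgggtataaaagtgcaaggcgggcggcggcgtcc
XBP1: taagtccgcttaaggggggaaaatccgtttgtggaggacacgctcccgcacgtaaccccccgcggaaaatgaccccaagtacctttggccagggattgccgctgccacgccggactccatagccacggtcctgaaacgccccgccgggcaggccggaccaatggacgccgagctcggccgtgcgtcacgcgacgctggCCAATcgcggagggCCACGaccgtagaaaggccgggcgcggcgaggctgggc
CANX: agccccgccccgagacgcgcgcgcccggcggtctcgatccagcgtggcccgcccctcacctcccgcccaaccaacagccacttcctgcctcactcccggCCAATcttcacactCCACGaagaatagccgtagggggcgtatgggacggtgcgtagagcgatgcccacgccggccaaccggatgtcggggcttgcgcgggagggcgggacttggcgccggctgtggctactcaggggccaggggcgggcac

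The ERSE began 66 bases before the start in HSPA5, 194 and 89 bases before it in HSP90B1, 80 in CRELD2, 225 in CALR, 52 in XBP1 and 151 in the CANX window shown. In CRELD2 and CALR, and in the second copy of HSP90B1, it lay on the opposite strand and reads CGTGG to ATTGG. The shorter ERSE-II, ATTGG with 1 base before CCACG, was in 19 of 35116 windows (0.0541%) and in 2 members. These stretches, with 20 bases on each side and the whole element in capitals, are HYOU1 at chr11:119057254-119057410 on the minus strand and SDF2L1 at chr22:21642094-21642144 on the plus strand.
HYOU1: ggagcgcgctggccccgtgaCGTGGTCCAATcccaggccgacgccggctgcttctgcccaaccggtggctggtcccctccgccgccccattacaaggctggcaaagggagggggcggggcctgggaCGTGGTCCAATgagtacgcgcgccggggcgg
SDF2L1: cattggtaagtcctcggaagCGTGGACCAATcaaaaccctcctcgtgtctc
HYOU1 held 2 copies, 185 and 79 bases before its start, and SDF2L1 held 1 copy, 188 bases before its start. The UPR element core TGACGTGG was in 4 of 31 members (12.9%) and in 0.927% of genes, the hypoxia element core ACGTG, which overlaps it, in 16 of 31 (51.6%) and in 24.9% of genes. The element CCACG alone was in 23 of 31 (74.2%) and in 42.1% of genes, and the ATF4 composite site, searched as TGATG, 1 base of any kind, AA and 1 more base, in 0 of 31 and in 4.45% of genes. These are matches of letters in a window and not measured binding.

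With PP242 for 24 h, 15 of the 32 ER members tested fell and 1 rose relative to DMSO in the same hypoxia, at an adjusted p under 0.05 (46.9% lower and 3.12% higher), where 11.3% of all genes tested fell and 10.4% rose. All 3 chaperones fell, as did DNAJB11, DNAJC3 and SDF2L1 among the co-chaperones, both secreted stress-induced factors (CRELD2 and MANF), PDIA4 and P4HB among the oxidoreductases and CALR of the lectin cycle. Among sensors and signalling genes EIF2AK3, XBP1 and WFS1 fell and PPP1R15A rose, and SEC61B of the translocation channel fell. The median log2 change over the members was -0.36, against 0.0024 over all genes tested, with 9 members above 0 and 23 below. Without overlap between arrays, 4 members lay higher and 15 lower with PP242, against 15.3% and 16.5% of all genes. Of the members that fell, 5 of the 15 with a promoter window (33.3%) held an ERSE, against 1 of 15 other tested members (6.67%), with no test made.

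**Figure D1:**
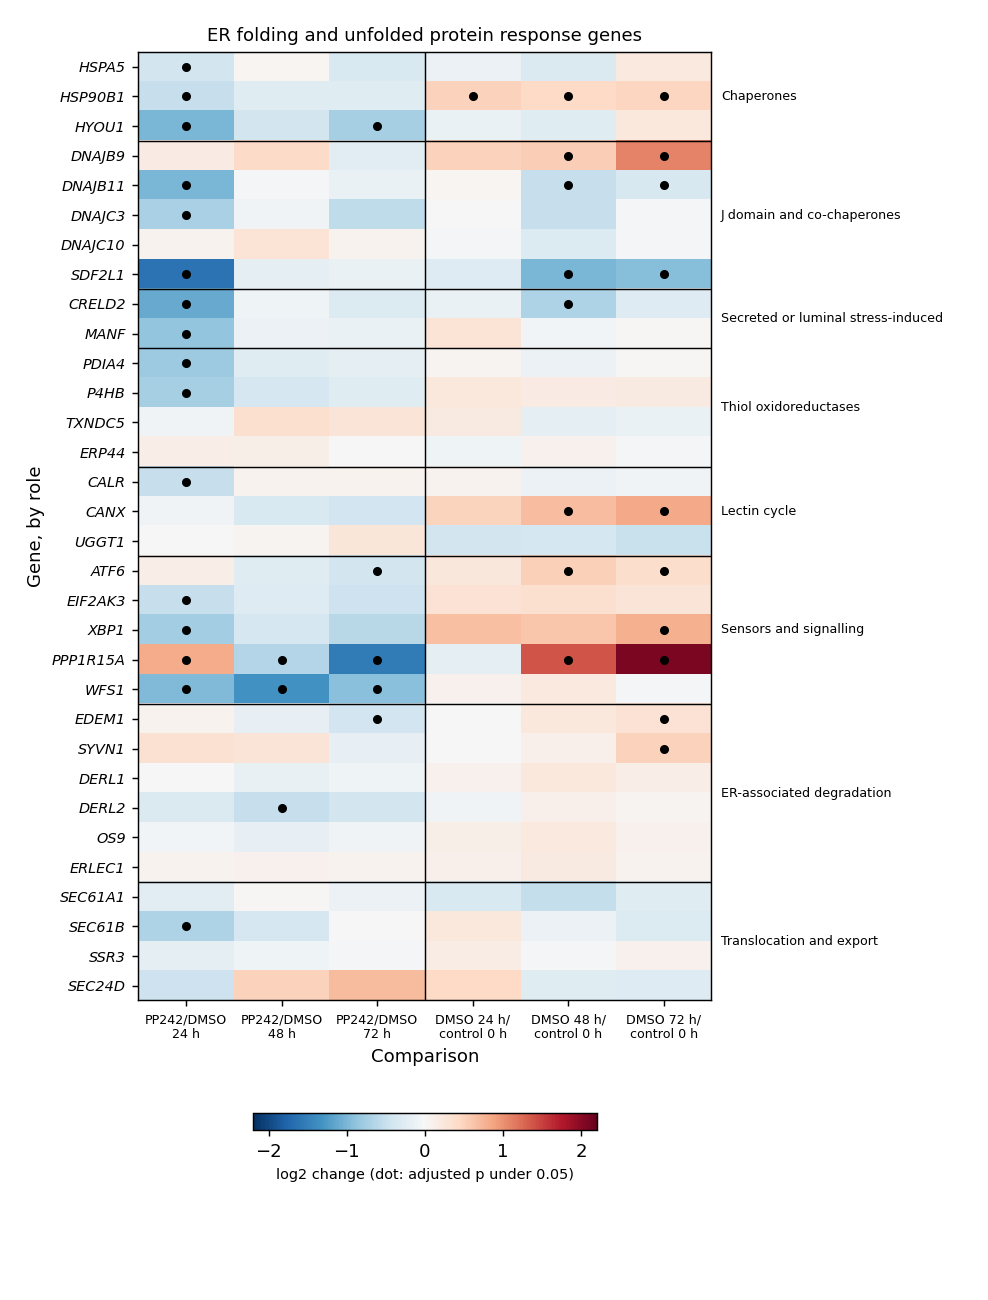
Log2 change of each of the 32 tested members, by role, in the comparisons of PP242 against DMSO (left) and DMSO in hypoxia against the 0 h control (right); blue is lower, red is higher, and a dot marks an adjusted p under 0.05. The 24 h PP242 column holds 15 blue dots and 1 red dot, while PPP1R15A turns from 0.82 at 24 h to -1.54 at 72 h.

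SDF2L1, an ER protein that binds DNAJB11, had the largest fall among the members. Its log2 intensity with PP242 at 24 h was 8.79, 9.71, 8.31 and 8.77, against 10.62, 10.65 and 10.25 with DMSO. All 4 PP242 arrays lay below all 3 DMSO arrays, and the mean was 8.89 ± 0.59 with PP242 and 10.51 ± 0.22 with DMSO (SD). The log2 change was -1.62 ± 0.25 (SE, limma adjusted p = 2.86e-05), which is 3.06-fold lower.

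DNAJB11, a J protein that assists the chaperone BiP, read 10.47, 10.86, 10.28 and 10.37 with PP242 and 11.53, 11.53 and 11.43 with DMSO on the log2 intensity scale, with no overlap. It fell by 1.00 (SE 0.13, limma adjusted p = 3.20e-06). CRELD2, a secreted ER stress protein, read 8.49, 9.08, 7.99 and 8.27 with PP242 and 9.52, 9.68 and 9.51 with DMSO, also with no overlap, a log2 change of -1.11 (SE 0.20, limma adjusted p = 0.000202). HYOU1, a large HSP70 relative that acts as a nucleotide exchange factor of BiP, read 6.73, 6.44, 6.23 and 6.54 with PP242 and 7.45, 7.39 and 7.63 with DMSO. It fell by 1.00 (limma adjusted p = 0.000231), and its second probe changed by -0.71.

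HSPA5, the gene of BiP and the standard marker of ER stress, read 9.14, 9.26, 8.75 and 8.65 with PP242 and 9.30, 9.38 and 9.39 with DMSO in log2 intensity. The groups did not overlap, but array 1 and 2 with PP242 lay close to DMSO array 1. The log2 change was -0.41 ± 0.13 (SE, limma adjusted p = 0.0268). XBP1 read 10.56, 10.82, 10.26 and 9.84 with PP242 and 11.13, 11.17 and 11.13 with DMSO, a log2 change of -0.77 (limma adjusted p = 0.0388), and its second probe changed by -0.83. The 3 DMSO arrays lay close together and above all PP242 arrays. DMSO at 24 h has no sample numbered 4, and XBP1 was lowest on number 4 in every other group but DMSO at 72 h. Without PP242 array 4 the XBP1 change was -0.60 (limma adjusted p = 0.151).

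EIF2AK3, the gene of PERK, read 5.36, 5.63, 5.80 and 5.66 with PP242 and 6.22, 5.99 and 6.15 with DMSO, and fell by 0.51 (limma adjusted p = 0.0361). Its probe was dim, with a mean signal of 131 over the 27 arrays. WFS1, an ER membrane protein whose loss causes Wolfram syndrome, read 8.54, 8.41, 8.33 and 8.07 with PP242 and 9.30, 9.17 and 9.44 with DMSO, and fell by 0.96 (limma adjusted p = 0.000706). ATF6 read 9.62, 9.62, 9.58 and 9.55 with PP242 and 9.52, 9.41 and 9.43 with DMSO, a log2 change of 0.14 that did not pass (limma adjusted p = 0.45).

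PPP1R15A, the ATF4-induced phosphatase subunit also called GADD34, was the 1 member that rose. It read 8.02, 7.79, 8.16 and 7.88 with PP242 and 7.10, 7.08 and 7.23 with DMSO, a log2 change of 0.82 ± 0.22 (SE, limma adjusted p = 0.00672). With each array scaled to one median the change was 0.62 and did not pass (adjusted p = 0.0517). ERN1 gave log2 intensities between 4.10 and 4.92 with PP242 at 24 h and between 4.20 and 4.90 with DMSO, and between 4.07 and 4.92 over all 27 arrays, never above background.

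The remaining falls at 24 h were smaller or similar. P4HB, a protein disulfide isomerase, averaged 10.36 ± 0.07 with PP242 and 11.09 ± 0.12 with DMSO in log2 intensity. MANF, a secreted ER stress factor, averaged 10.50 ± 0.57 with PP242 and 11.36 ± 0.06 with DMSO. PDIA4, another oxidoreductase, averaged 6.02 ± 0.07 with PP242 and 6.82 ± 0.08 with DMSO.
The log2 changes were -0.73 in P4HB, -0.86 in MANF and -0.81 in PDIA4, each below all DMSO arrays. HSP90B1, the ER HSP90 (GRP94), fell by 0.51, DNAJC3, the co-chaperone p58IPK, by 0.71, CALR by 0.51 and SEC61B by 0.68 on the log2 scale. The lectin CANX, UGGT1, which reglucosylates unfolded glycoproteins, and the degradation genes EDEM1, SYVN1, DERL1, DERL2, OS9 and ERLEC1 did not pass, with log2 changes between -0.32 and 0.33. TXNDC5, ERP44, DNAJB9, DNAJC10, SEC61A1, SSR3 and SEC24D did not pass either, with changes between -0.45 and 0.18.

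With each array scaled to one median, 17 members fell and 0 rose at 24 h, against 16.8% of all genes lower and 5.24% higher in that fit, and the share of higher genes among all those called moved to 23.8% from 47.8%. Leaving out PP242 array 3 ended the call of CALR (adjusted p = 0.0564). Leaving out DMSO array 1, PP242 array 3 or PP242 array 4 ended that of DNAJC3 (adjusted p 0.0512 to 0.101). Leaving out any of these 3 or DMSO array 2 or 3 ended those of HSPA5 (0.0559 to 0.122) and XBP1 (0.0808 to 0.151), and EIF2AK3 was lost without each array but PP242 array 3 (0.0521 to 0.136). In a fit of the authors' value table EIF2AK3 had an adjusted p of 0.0577 and XBP1 of 0.0507. With the replicate block, which enters the sample number into the fit, 2 members rose and 15 fell at 24 h. In that fit 1885 of the 12641 genes tested were higher and 1896 lower. SYVN1, at 0.33 and adjusted p = 0.07, passed as higher with the replicate block (adjusted p = 0.0428). It also passed with no background correction (0.0398), an offset of 50 (0.0443) and the authors' value table (0.0231). A filter for signal above background on all arrays gave the same call (0.0399). The second SYVN1 probe, above background on 6 arrays, changed by -0.18. Of the 6 tested markers of other cells CD14, LUM and DCN fell with PP242 at 24 h, by 0.90, 1.33 and 1.38 on the log2 scale. The signals of the 10 such markers with a probe, with no background removed, summed to 1026 to 1089 with PP242 and to 1243 to 1439 with DMSO. The background mode was between 92.4 and 106 per array, so much of each sum was background. Whether these markers have a part in the results was not tested.

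**Figure D2:**
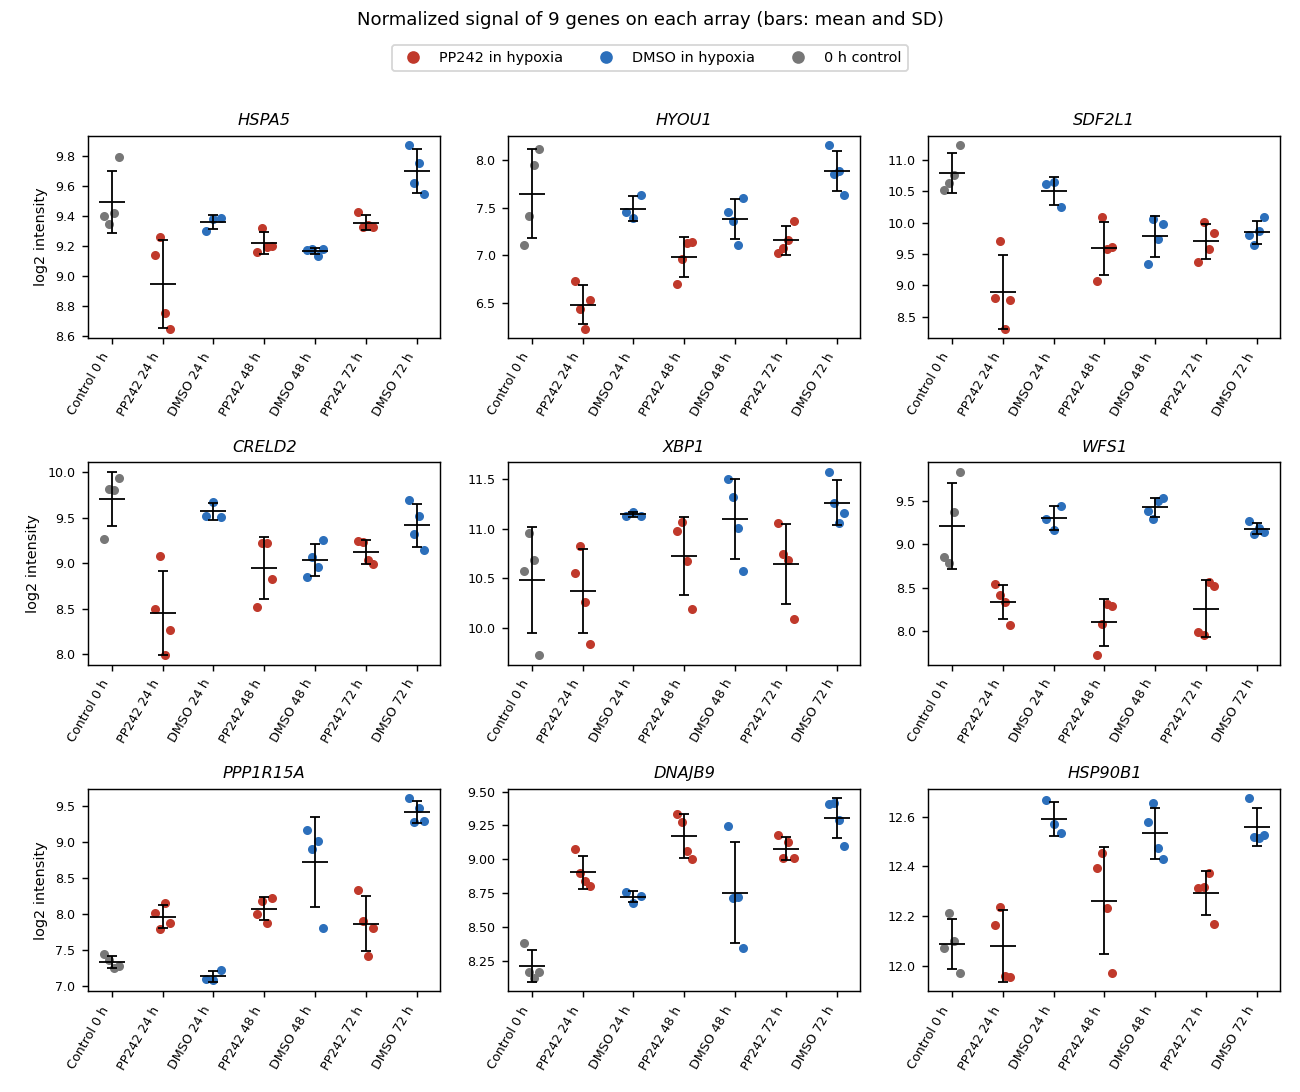
Log2 intensity of 9 members on each array, with bars for the mean and SD, by group along the axis from the 0 h control to 72 h. SDF2L1, CRELD2 and HYOU1 sit low with PP242 at 24 h, WFS1 at all 3 times, and PPP1R15A is highest with DMSO at 72 h.

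**Figure D3:**
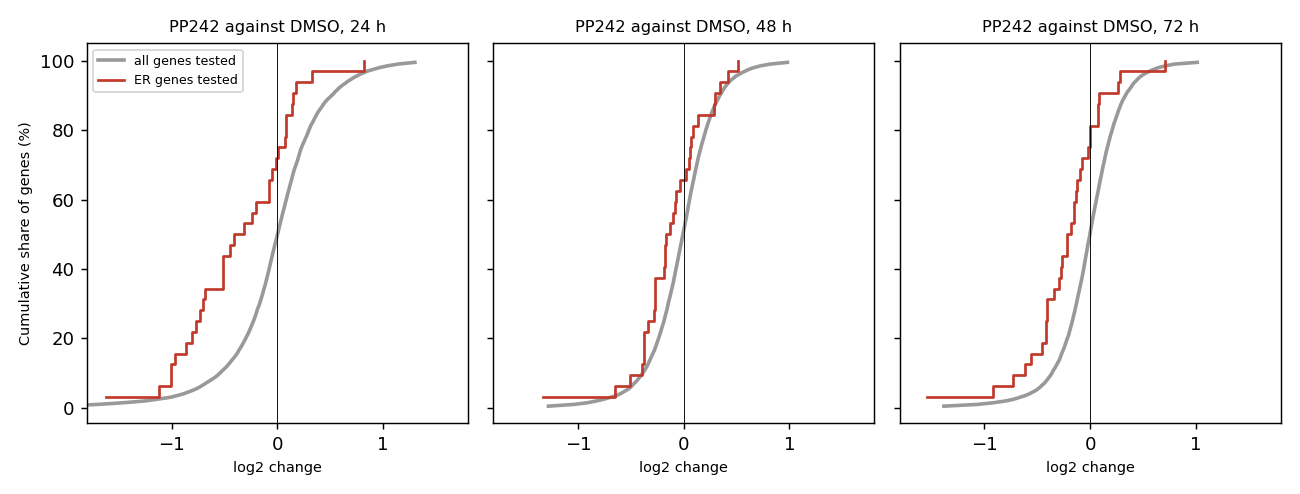
Cumulative share of genes (vertical axis, percent) against log2 change of PP242 over DMSO at 24, 48 and 72 h, for the members (red) and all genes tested (grey). The red line lies left of the grey one at 24 h, where the member median is -0.36, and nearer to it at 48 h, where the median is -0.15.

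At 48 h few members differed between PP242 and DMSO. Of 32 members, 0 rose and 3 fell (9.38%), against 4.43% of all genes higher and 5.83% lower, and the median over the members was -0.15 with 11 above 0 and 21 below. At an unadjusted p under 0.05, 9 members were lower and 5 higher, the latter against 10.2% of all genes. The share of all genes lower at this cut is not reported here. WFS1 read 7.72, 8.08, 8.31 and 8.28 with PP242 and 9.38, 9.29, 9.49 and 9.53 with DMSO in log2 intensity, with no overlap. It fell by 1.33 ± 0.18 (SE, limma adjusted p = 1.67e-05), its largest difference at the 3 times. Without overlap between arrays, 2 members lay higher and 4 lower with PP242, against 6.13% and 7.82% of all genes.
DERL2, a factor of ER-associated degradation, read 6.79, 7.08, 6.25 and 6.94 with PP242 and 7.07, 7.54, 7.34 and 7.16 with DMSO, with overlap by 1 PP242 array. It fell by 0.51 (limma adjusted p = 0.0301). PPP1R15A read 8.001, 8.19, 7.88 and 8.23 with PP242 and 9.17, 8.90, 9.02 and 7.80 with DMSO, and DMSO array 4 lay below all PP242 arrays. It fell by 0.65 (limma adjusted p = 0.0387), and its call ended without DMSO array 1, 2 or 3 or PP242 array 1 or 3.
The adjusted p of DERL2 was between 0.0605 and 0.162 without DMSO array 2 or 3 or PP242 array 1 or 3. HSPA5 read 9.16, 9.32, 9.20 and 9.20 with PP242 and 9.17, 9.18, 9.14 and 9.18 with DMSO, a log2 change of 0.05. XBP1 read 10.98, 11.06, 10.67 and 10.19 with PP242 and 11.50, 11.32, 11.01 and 10.58 with DMSO, where array 4 was the lowest of either group and the groups overlapped. With the replicate block 10 members passed, 3 higher and 7 lower, against 8.85% of all genes higher and 11% lower in that fit. The higher ones in that fit were DNAJB9 (log2 change 0.42, adjusted p = 0.0058), SEC24D, a coat protein of ER export (0.51, adjusted p = 0.0189), and TXNDC5 (0.35, adjusted p = 0.0366). DNAJB9 also passed as higher with no background correction (limma adjusted p = 0.0311), an offset of 50 (0.0322) and the authors' value table (0.0195). A filter for signal above background on all arrays (0.0317) and the mean of a gene's kept probes (0.0466) gave the same call. With no background correction ATF6 (0.0349), HSP90B1 (0.0448) and P4HB (0.0434) passed as lower beside those of the main fit. With median scaling 0 rose and 6 fell, against 1.87% and 7.76% of all genes, and the share of higher genes among all called moved to 19.4% from 43.2%. The markers of other cells, with no background removed, summed to 940 to 1084 with PP242 at 48 h and to 1238 to 1441 with DMSO. LUM was at -1.45 and DCN at -2.55, and the part of these markers in the results was not tested.

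At 72 h the members lower with PP242 in the main fit were PPP1R15A, WFS1 and ATF6 among sensors and signalling genes, the chaperone HYOU1 and the degradation factor EDEM1. Of 32 members 0 rose and 5 fell (15.6%), against 3.4% of all genes higher and 5.49% lower; the median over the members was -0.20, with 8 above 0 and 24 below. At an unadjusted p under 0.05, 12 members were lower and 2 higher, the latter against 9.41% of all genes. The share of all genes lower at this cut is not reported here. PPP1R15A read 8.34, 7.91, 7.42 and 7.81 with PP242 and 9.61, 9.28, 9.47 and 9.29 with DMSO in log2 intensity, with no overlap. It fell by 1.54 ± 0.20 (SE, limma adjusted p = 5.26e-06).
WFS1 read 7.99, 7.95, 8.56 and 8.52 with PP242 and 9.27, 9.12, 9.19 and 9.14 with DMSO, and fell by 0.92 (limma adjusted p = 0.00119). HYOU1 read 7.03, 7.07, 7.16 and 7.36 with PP242 and 8.16, 7.85, 7.89 and 7.64 with DMSO, and fell by 0.73 (limma adjusted p = 0.00642). Neither gene overlapped between the groups. Over the members, 0 lay higher and 10 lower with PP242 without overlap, against 5.96% and 8.27% of all genes. EDEM1, which hands misfolded glycoproteins to degradation, read 5.76, 5.78, 5.74 and 5.68 with PP242 and 6.08, 6.12, 6.19 and 6.24 with DMSO, and fell by 0.42 (limma adjusted p = 0.00914) from a dim probe with a mean signal of 131.
ATF6 read 9.38, 9.23, 9.23 and 8.90 with PP242 and 9.65, 9.55, 9.54 and 9.62 with DMSO, and fell by 0.40 (limma adjusted p = 0.0147), with an adjusted p of 0.0881 without PP242 array 4 and of 0.0832 with median scaling. HSPA5 read 9.43, 9.33, 9.34 and 9.33 with PP242 and 9.88, 9.62, 9.75 and 9.54 with DMSO, with no overlap, and its log2 change of -0.34 did not pass (limma adjusted p = 0.088). HSPA5 passed as lower with no background correction (0.0382), an offset of 50 (0.0454) and the authors' value table (0.0358). XBP1 read 11.06, 10.75, 10.69 and 10.09 with PP242 and 11.58, 11.26, 11.06 and 11.16 with DMSO, and its change of -0.62 did not pass. EIF2AK3 read 5.68, 5.87, 5.69 and 5.34 with PP242 and 6.25, 5.90, 5.89 and 6.35 with DMSO, and its change of -0.45 did not pass either.
With the replicate block 12 members passed, 1 higher and 11 lower, against 7.74% of all genes higher and 9.36% lower, and XBP1 (adjusted p = 0.00161), EIF2AK3 (0.0491) and DNAJC3 (0.0135) were among those it added. The 1 higher was SEC24D (log2 change 0.70, adjusted p = 0.00169). SEC24D also passed in the authors' value table (0.0479) and with a filter for signal above background on all arrays (0.0478). CANX, at -0.42, passed as lower with the replicate block (0.0159) and with that filter (0.0474). It also passed as lower with no background correction (0.0471) and an offset of 50 (0.0494). The markers of other cells, with no background removed, summed to 956 to 1140 with PP242 at 72 h and to 1176 to 1274 with DMSO. DCN was at -2.44, and the part of these markers in the results was not tested.

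In hypoxia with DMSO, against the 0 h control, PPP1R15A, CANX, ATF6, HSP90B1 and DNAJB9 rose at 48 and 72 h, while SDF2L1 and DNAJB11 fell at both times. At 24 h 1 member rose (3.12%) and 0 fell, against 0.839% of all genes higher and 0.182% lower. That member was HSP90B1, which read 12.67, 12.57 and 12.53 with DMSO and 12.07, 12.21, 12.10 and 11.97 in the control in log2 intensity. It rose by 0.50 ± 0.12 (SE, limma adjusted p = 0.0293), but not without any one of 6 of the 7 arrays, all but control array 2 (adjusted p 0.0622 to 0.185), nor with median scaling (0.154). At 24 h, 5 members had an unadjusted p under 0.05 in the higher and 0 in the lower direction, against 5.4% and 6.57% of all genes. With the replicate block 2 rose and 0 fell, against 1.58% and 1.28% of all genes, DNAJB9 (adjusted p = 0.0262) being the other one.

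At 48 h 5 members rose (15.6%) and 3 fell (9.38%), against 6.75% of all genes higher and 7.11% lower. PPP1R15A read 9.17, 8.90, 9.02 and 7.80 with DMSO at 48 h and 7.45, 7.36, 7.26 and 7.29 in the control, and rose by 1.38 ± 0.20 (SE, limma adjusted p = 2.17e-05). DMSO array 4 lay more than 1 below the other 3 and still above every control array. ATF6 read 9.79, 9.76, 9.83 and 9.47 with DMSO and 9.17, 9.39, 9.11 and 9.11 in the control, and rose by 0.52 (limma adjusted p = 0.00122).
CANX, the membrane lectin chaperone, read 8.24, 8.03, 8.11 and 7.98 with DMSO and 7.54, 7.47, 7.26 and 7.41 in the control, and rose by 0.67 (limma adjusted p = 0.00164). SDF2L1 read 9.34, 10.05, 9.73 and 9.98 with DMSO and 10.53, 10.63, 10.76 and 11.24 in the control, and fell by 1.01 (limma adjusted p = 0.00345). None of these 4 overlapped between groups. Over the members, 4 lay higher and 5 lower with DMSO without overlap, against 7.5% and 7.71% of all genes. HSP90B1 rose by 0.44 and DNAJB9, a BiP co-chaperone induced by XBP1, by 0.54, while DNAJB11 fell by 0.50 and CRELD2 by 0.68.
The call of DNAJB9 ended without DMSO array 1 (adjusted p = 0.0516) and that of CRELD2 without control array 4 or DMSO array 1 (0.0529 to 0.0617). With median scaling 2 members rose and 6 fell, against 3.93% and 9.37% of all genes, and ATF6, HSP90B1 and DNAJB9 no longer passed; the share of higher genes among all called moved to 29.6% from 48.7%. With the replicate block 13 passed, 6 higher and 7 lower, against 11.2% of all genes higher and 12.4% lower. Among the 13 were XBP1, higher by 0.62 (limma adjusted p = 0.00117), and SEC61A1, lower by 0.53 (0.00809).

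At 72 h 8 members rose (25%) and 2 fell (6.25%), against 11.3% of all genes higher and 13.4% lower. PPP1R15A read 9.61, 9.28, 9.47 and 9.29 with DMSO at 72 h and 7.45, 7.36, 7.26 and 7.29 in the control, the largest rise at 2.07 ± 0.20 (SE, limma adjusted p = 1.30e-08). DNAJB9 read 9.40, 9.42, 9.29 and 9.10 with DMSO and 8.38, 8.17, 8.12 and 8.17 in the control, and rose by 1.09 (limma adjusted p = 7.24e-07). CANX read 8.64, 8.10, 8.34 and 7.91 with DMSO and rose by 0.83 (limma adjusted p = 7.43e-05). HSP90B1 read 12.67, 12.52, 12.52 and 12.53 with DMSO and 12.07, 12.21, 12.10 and 11.97 in the control. None of these 4 members overlapped between the groups. Over the members, 8 lay higher and 2 lower with DMSO without overlap, against 10.9% and 12.7% of all genes.
SYVN1, the ubiquitin ligase of ER-associated degradation, rose by 0.50 (limma adjusted p = 0.00221), EDEM1 by 0.31, HSP90B1 by 0.47, ATF6 by 0.39 and XBP1 by 0.78, while SDF2L1 fell by 0.94 and DNAJB11 by 0.36. The second SYVN1 probe was above background on 6 arrays. XBP1 read 11.58, 11.26, 11.06 and 11.16 with DMSO and 10.58, 10.96, 10.68 and 9.73 in the control, with no overlap, and did not pass without control array 4 or DMSO array 1 (adjusted p 0.0779 to 0.115).
The calls of EDEM1 and DNAJB11 were also lost without single arrays, 4 and 7 of the 8, with adjusted p up to 0.0879. With median scaling 4 rose and 3 fell, against 7.1% and 17.2% of all genes, SYVN1, ATF6, XBP1 and EDEM1 did not pass, and the share of higher genes among all called moved to 29.3% from 45.8%. HSPA5 read 9.40, 9.35, 9.42 and 9.80 in the control. In the main fit HSPA5 did not pass at any time against the control, with log2 changes of -0.13, -0.32 and 0.21 at 24, 48 and 72 h. At 48 h it passed as lower with no background correction (limma adjusted p = 0.0392), an offset of 50 (0.0458) and median scaling (0.0273). The authors' value table (0.0401) and a filter for signal above background on all arrays (0.0483) gave the same call.

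Within DMSO, 72 h against 24 h, 3 members rose (9.38%) and 2 fell (6.25%), against 7.84% of all genes higher and 8.78% lower. PPP1R15A rose by 2.28 (limma adjusted p = 6.94e-08), DNAJB9 by 0.58 and SYVN1 by 0.52. DNAJB11 fell by 0.40 and SEC61B by 0.53. HSPA5 and EDEM1 did not pass in the main fit but passed as higher with no background correction (limma adjusted p = 0.0377 and 0.0347). Both also passed as higher with an offset of 50 (0.0446 and 0.0448) and in the authors' value table (0.0201 and 0.0234). SYVN1 read 8.05, 8.15, 7.85 and 7.94 at 72 h and 7.26, 7.59 and 7.59 at 24 h, and lost its call without DMSO 24 h array 1 (adjusted p = 0.0647), and SEC61B and DNAJB11 theirs without any of 5 and of all 7 arrays (adjusted p up to 0.143). The mean of both SYVN1 probes gave 0.27, which did not pass (adjusted p = 0.105). With the replicate block 9 members passed, 5 higher and 4 lower, against 12.4% of all genes higher and 13% lower. With median scaling 1 rose and 6 fell, against 4.31% and 14%, SYVN1 did not pass (adjusted p = 0.26), and the share of higher genes among all called moved to 23.6% from 47.2%.

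The PP242 effect of 13 changes differed with time by a test of the difference itself. At 48 h minus 24 h, 3 members had a higher effect (9.38%) and 1 a lower one (3.12%), against 2.7% and 2.4% of all genes. At 72 h minus 24 h, 5 were higher (15.6%) and 4 lower (12.5%), against 7.59% and 7.69%. For SDF2L1 the PP242 effect was -1.62, -0.19 and -0.15 at 24, 48 and 72 h, and the later effects exceeded the one at 24 h by 1.43 (limma adjusted p = 0.0137) and 1.47 (adjusted p = 0.00334). The DMSO level of SDF2L1 was 10.51, 9.78 and 9.85 at these times, and its PP242 level 8.89, 9.59 and 9.70.
DNAJB11 and CRELD2 had differences of the same sign at both times, 0.97 and 0.86 for DNAJB11 and 1.03 and 0.82 for CRELD2. Both differences of a gene subtract the same 24 h effect, so their signs are not independent. Each of the 4 differences was past the threshold. PPP1R15A went the other way, with effects of 0.82, -0.65 and -1.54 and differences of -1.47 (limma adjusted p = 0.00419) and -2.37 (adjusted p = 2.36e-06). At 72 h CALR (0.59) and SEC24D (1.15) exceeded their 24 h effect, and ATF6 (-0.54), EDEM1 (-0.50) and SYVN1 (-0.51) lay below it.
The comparisons against DMSO and against the control share the DMSO arrays. The 72 h differences of CALR and CRELD2 did not pass without any one of 12 of the 15 arrays (adjusted p up to 0.116 and 0.12), that of SYVN1 without any of 11 (up to 0.184), and those of EDEM1 and SEC24D without any of 4 each (up to 0.0877 and 0.0561). CALR and CRELD2 also did not pass in the fit of the authors' value table (0.059 and 0.0565) or with no filter on dim probes (0.0666 and 0.0566). The SYVN1 difference was -0.14 with the mean of its probes (adjusted p = 0.655) and did not pass with no filter (0.075). CRELD2 at 48 h also did not pass without 8 of 15 arrays. With the replicate block 8 members passed at 48 h, 6 higher and 2 lower, against 5.73% and 6.17% of all genes. At 72 h 14 passed with it, 9 higher and 5 lower, against 11.7% and 13.1%. With median scaling ATF6, EDEM1 and SYVN1 did not pass at 72 h, 6 members were higher and 1 lower there, against 9.03% and 4.31% of all genes, and the share of higher genes among all called moved to 67.7% from 49.7%, and to 64% from 53% at 48 h.

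**Figure D4:**
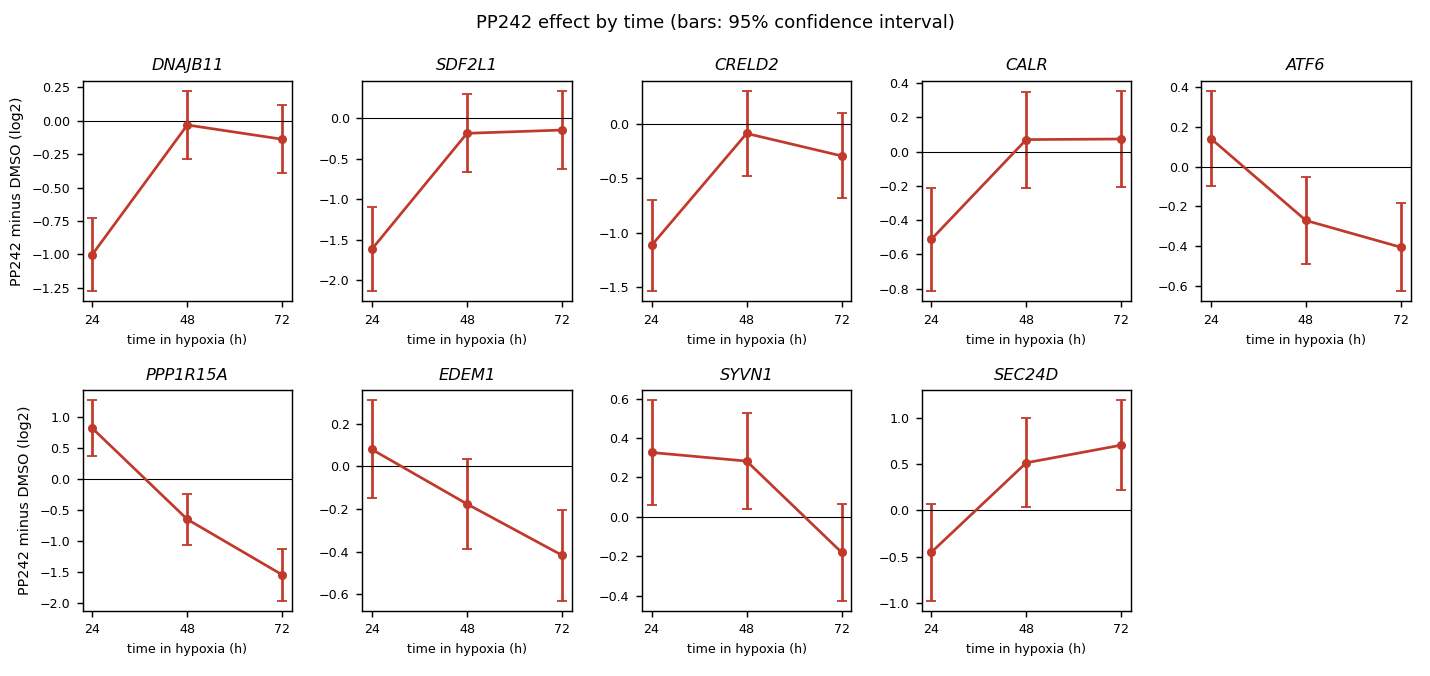
PP242 minus DMSO in log2 units (vertical axis) against time in hypoxia in hours for 9 members, with bars for the 95% confidence interval of each effect. DNAJB11, SDF2L1 and CRELD2 lie near 0 at 48 and 72 h after falls at 24 h, and PPP1R15A falls through 0 between 24 and 48 h.

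Other genes of the pathway, from lists written with earlier results of these data known, were counted beside the members. Over all genes tested, 10.4% rose and 11.3% fell with PP242 at 24 h, 4.43% and 5.83% at 48 h, and 3.4% and 5.49% at 72 h. The 11 tested genes listed as PERK and ATF4 output also included EIF2AK1, EIF2AK2 and PPP1R15B, which act on eIF2 alpha, upstream of ATF4. Of the 11, 2 rose and 4 fell with PP242 at 24 h. At 48 h 1 rose and 4 fell, and at 72 h 1 rose and 4 fell. DDIT3, the stress transcription factor CHOP, had log2 changes of 1.12, -2.02 and -2.69 at 24, 48 and 72 h, with adjusted p = 0.0025, 1.89e-06 and 1.61e-08 by limma. ASNS, asparagine synthetase, had changes of -1.13, -1.04 and -1.17, each past the threshold.
TRIB3, an ATF4-induced pseudokinase, had changes of -1.32 at 48 h and -2.11 at 72 h, and CEBPB one of -1.35 at 72 h. Against the control, DDIT3 rose by 2.502 at 48 h and 2.68 at 72 h with DMSO. Among the 14 tested genes of other folding, 1 rose and 4 fell with PP242 at 24 h, among them TXNDC12 (-0.79) and FKBP14 (-0.86). Of 17 in translocation and glycosylation, 2 rose and 4 fell at 24 h, SPCS3, a signal peptidase subunit, by 1.54. Of 12 in other degradation 1 rose and 2 fell at 24 h, VCP, the extracting ATPase, by 0.96, and of 12 in ER export and retrieval 2 rose and 4 fell at 24 h, with SAR1B at -1.01. Of 7 other ER sensors and proteases 2 rose and 0 fell at 24 h, MBTPS1 (0.40) and MBTPS2 (0.38), the proteases that cleave ATF6.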

How the data were processed

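Biotin-labelled cRNA made from total RNA was hybridised to Illumina bead arrays, per the labels. The deposited non-normalized table gives a linear intensity for each of 48107 probes on each array and lists no p-values for detection, and 0 columns of sample values stayed unmapped. The deposited value table holds intensity values of 27367 probes, which differ by at most 2.12% from quantile-normalized signals computed here; it was used as an alternative. The scanner and software are not given in the sources used here.

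Signals were background corrected by normexp (offset 16), taken to log2 and quantile normalized. A stand-in for detection took the mode of each array's signals as background (density bandwidth 1.5) and kept probes with p under 0.05 on at least 3 arrays. Each gene had its probe with the highest mean. Probes with several or no gene names were not named. Changes come from 1 linear model over the 7 groups in limma 3.58.1 (R 4.3.3), with Benjamini-Hochberg adjustment over 12641 genes at 0.05; SE is the moderated one, and the fit was tested on simulated data. The number of arrays limits the precision.

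The members and lists were chosen with earlier results of these data known. Values per array are given for HSPA5, XBP1, ERN1, EIF2AK3 and ATF6 and for members that were among the 4 with the smallest p in at least 1 comparison, in a selection of the comparisons; other genes of a list are named when past the threshold. Same-number samples were checked for pairing by the correlation of their deviations from group means, which the labels do not explain. The lowest correlation was 0.124 to 0.207 in 6 comparisons and 0.0991 for DMSO at 72 h against the control. The main fit treated no comparison as paired, and the sample number entered only in the replicate block. Between samples numbered 4 and 1, 4573 genes and 13 of 32 members differed, and DMSO at 24 h has no number 4. The planned count of ER retrieval signals was not run, since no protein table was used here. Alternatives were no background correction, an offset of 50, median scaling, the value table, 2 filters, the mean of probes, the replicate block and each array left out.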

Additional observations from a re-analysis of the deposited data

Results flagged for a closer look

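In groups of 4 arrays, 6 arrays of 198 groups examined stood apart from the other 3, by a gap above the 95% critical value for 4 values; chance alone gives about 1 in 20 groups. In log2 intensity, HSPA5 read 9.80 on control array 4, with the nearest other at 9.42, and DNAJC10 8.13 on the same array, with the nearest at 7.77. HSP90B1 read 12.67 on DMSO 72 h array 1, with the nearest at 12.53, and DNAJB11 11.13 on DMSO 72 h array 2, with the nearest at 11.08. PDIA4 read 6.12 on PP242 24 h array 4, with the nearest at 5.995, and ERLEC1 8.17 on PP242 48 h array 1, with the nearest at 7.82.

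The PP242 effect at a later time differed from that at 24 h by a test of the difference in limma for 13 changes. At 48 h the log2 differences were 0.97 for DNAJB11 (adjusted p = 0.00243), 1.43 for SDF2L1 (0.0137), 1.03 for CRELD2 (0.0285) and -1.47 for PPP1R15A (0.00419). At 72 h they were 0.86 for DNAJB11 (0.0012), 1.47 for SDF2L1 (0.00334), 0.82 for CRELD2 (0.0455), 0.59 for CALR (0.0473) and 1.15 for SEC24D (0.0214). The negative ones at 72 h were -0.54 for ATF6 (0.0175), -2.37 for PPP1R15A (2.36e-06), -0.50 for EDEM1 (0.0258) and -0.51 for SYVN1 (0.0494).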

How the results depend on the processing

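Of 61 called member changes among 288, no call reversed sign under any alternative; 28 losses arose under other settings and 116 when 1 array was left out, and 0 were lost with the replicate block. The replicate block moved the count of members past the threshold to 10 for PP242 at 48 h, 12 at 72 h, 2 for DMSO at 24 h against the control, 13 at 48 h, 9 for DMSO at 72 h against 24 h, 8 for the PP242 effect at 48 h minus 24 h and 14 at 72 h minus 24 h; the counts of PP242 at 24 h and DMSO at 72 h against the control stayed within 1.5 times. For PP242 at 48 h, where 3 passed, no background correction gave 7, an offset of 50 gave 6, median scaling 6, the filter on all arrays 5 and the deposited values 7. For PP242 at 72 h the deposited values gave 8, against 5. For DMSO at 24 h median scaling and no filter gave 0, against 1. For DMSO at 72 h against 24 h no filter gave 3 and the filter on all arrays 8, against 5. Leaving out 1 array gave 12 to 15 for PP242 at 24 h, 1 to 4 at 48 h and 5 to 6 at 72 h, 0 to 1 for DMSO at 24 h, 6 to 10 at 48 h and 8 to 9 at 72 h, 2 to 4 for DMSO at 72 h against 24 h, and 3 to 5 and 4 to 10 for the differences of the PP242 effect at 48 and 72 h. Slide as a block was not run, since the headers give no slide. The cause of these moves was not tested.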

Other observations

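Genes of the ER pathway outside the members were counted in DMSO in hypoxia at 72 h against the 0 h control, where 11.3% of all genes rose and 13.4% fell. Of 17 tested genes of translocation and glycosylation 4 rose and 2 fell, among them DDOST, a subunit of oligosaccharyltransferase, with a log2 change of 0.76 (limma adjusted p = 2.90e-06) and SSR2, a translocon partner, with 0.96 (adjusted p = 0.00322). In ER export and retrieval 3 of 12 rose and 0 fell, KDELR1, the receptor that returns ER residents, by 0.73 (adjusted p = 8.63e-06). In other degradation 2 of 12 rose and 4 fell, with RNF5, a ubiquitin ligase of the ER membrane, at 0.92 and VCP at -0.55. In the list of PERK and ATF4 output 4 of 11 rose and 2 fell, with CEBPB at 1.496 (limma adjusted p = 4.93e-09) and TRIB3 at 1.89 (adjusted p = 3.98e-07). That list also holds EIF2AK1, EIF2AK2 and PPP1R15B, which act upstream of ATF4. In other folding 0 of 14 rose and 1 fell.

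With PP242 at 72 h KDELR1 had a log2 change of -0.47 (limma adjusted p = 0.00459) and DDOST one of -0.42 (adjusted p = 0.00891) against DMSO, and these comparisons share the DMSO arrays. At 24 h both were higher with PP242, DDOST by 0.45 and KDELR1 by 0.42. The PP242 effect at 72 h minus that at 24 h was -0.87 for DDOST (limma adjusted p = 0.000165) and -0.89 for KDELR1 (adjusted p = 0.000193).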
